A study of Mus musculus with 8 samples.

Results

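The m6A erasers and readers are the genes whose proteins remove N6-methyladenosine (m6A) from RNA or bind to it. They were taken as 10 listed genes: the demethylases Fto and Alkbh5, the YTH-domain readers Ythdf1, Ythdf2, Ythdf3, Ythdc1 and Ythdc2, and the KH-domain readers Igf2bp1, Igf2bp2 and Igf2bp3. All 10 had a row among the 27179 genes of the expression table, and 8 of them were among the 11406 genes that passed the filter on low values. MeRIP-seq, in which fragmented mRNA is pulled down with an antibody against m6A and sequenced beside the unselected input, had been carried out on C2C12 cells, an established mouse myoblast line that fuses into myotubes when serum is withdrawn. Cells in growth medium (GM) were proliferating in 10% fetal bovine serum at about 50% confluence, and cells after 3 days in differentiation medium (3d DM) had 2% horse serum and were over 90% confluent. Serum, confluence and time therefore differ together between the states and cannot be told apart. No gene was altered and no drug was given in either state. Each state had 2 immunoprecipitated (IP) and 2 input libraries from this single cell line. Nothing in the labels says that replicates were separate cultures, so the p-values do not cover variation between cultures or cell lines. On the deposited expression scale they also reflect a spread shared over genes more than a gene's own replicates.

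m6A is written onto adenosines of mRNA by a methyltransferase complex in the nucleus, mostly in the sequence context DRACH (D is any base but C, R a purine, H any base but G), of which GGACT is the classic form, and mostly near stop codons and in long exons. Erasers oxidise the methyl group away, and readers decide what happens to the marked RNA: YTHDF proteins act in the cytoplasm on translation and decay, YTHDC1 in the nucleus on splicing and export, and IGF2BP proteins stabilise and localise their targets. In muscle precursor cells the mark has been linked to the balance between proliferation and differentiation.

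The libraries carried the states their labels give. The differentiation genes Myog, Myh3, Ckm and Mymk were higher in 3d DM and the cell cycle genes Mki67 and Ccnb1 higher in GM, all 6 past an adjusted p of 0.05 (limma). The summed value of 7 myotube markers was 1270 to 5620 in GM and 104000 to 149000 in 3d DM, and the higher GM value belonged to GM replicate 1, so results that turn on that library are also given without it. None of the 12 markers of fat, bone, endothelium and leukocytes passed the filter, and their summed value was 22.1 to 35.9 in GM and 27.7 to 30.1 in 3d DM. Expression values were in the deposited normalized unit, in which every column has nearly the same total (12534657 to 12536233). A single entry without a gene symbol took 24.4% (GM replicate 1) to 41.3% (3d DM replicate 1) of it. On this scale the median tested gene was higher in GM, with a log2 fold change of 0.22, and all 10 members were lower in 3d DM replicate 1 than in 3d DM replicate 2. The changes below are therefore also given after the columns were rescaled by median-of-ratios factors, which bring the median tested gene to the same level in both states.

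Among the 8 tested members, Fto and Igf2bp2 differed most between the states, in opposite directions. Fto was higher after differentiation, with a ratio of the means of 1.73 (3d DM over GM), and Igf2bp2 was higher in proliferating cells, with a ratio of 2.08 (GM over 3d DM). On the deposited scale neither passed the adjusted threshold in limma, and 0 of the 8 tested members did, with 1 (Igf2bp2) at an unadjusted p under 0.05. Among all 11406 tested genes, 9.96% were called higher and 7.01% lower in GM, and 2987 had an unadjusted p under 0.05. After rescaling Fto and Igf2bp2 both passed, 1 in each direction, where 11.2% of all tested genes were called higher and 12.0% lower in GM. The median log2 fold change of the 8 members was 0.09, against 0.22 for all tested genes, and after rescaling it was -0.13.

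Fto, the first m6A demethylase described, lies at chr8:91313525-91668439 on the plus strand of mm10. The GM replicates 1 and 2 gave normalized values of 786 and 593, whereas the 3d DM replicates gave 981 and 1399. Values of later genes are in the same order of replicates. Both GM libraries were below both 3d DM libraries, as for 16.8% of all tested genes. The group means were 689.8 ± 137 in GM and 1190 ± 295 in 3d DM (SD, n = 2), and the log2 fold change (GM minus 3d DM) was -0.78 ± 0.43 (SE, 95% confidence interval -1.62 to 0.07, adjusted p = 0.243). After rescaling, GM had 669 and 594 against 1262 and 1268 for 3d DM, so that the replicates of each state lay closer together. The log2 fold change was then -1.0 ± 0.16 (adjusted p = 0.0109). On the deposited scale, leaving out 1 library at a time gave -0.98 without GM replicate 1 (adjusted p = 0.546), -0.57 without GM replicate 2, -1.03 without 3d DM replicate 1 and -0.52 without 3d DM replicate 2, and none of these passed.

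Alkbh5, the other demethylase (chr11:60536381-60558512, plus strand), gave values of 1181 and 903 for GM against 912 and 1234 for 3d DM. The 2 states spanned nearly the same range, with means of 1042 ± 196 and 1073 ± 227. Its log2 fold change was -0.04 ± 0.43 (95% confidence interval -0.88 to 0.80), so a difference in either direction of up to about the size seen for Fto lies within the interval. After rescaling, Alkbh5 was -0.27 ± 0.16 (adjusted p = 0.285), with values of 1004 and 904 in GM against 1173 and 1118 in 3d DM.

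None of the 3 cytoplasmic YTH readers passed the adjusted threshold on the deposited scale or after rescaling. Ythdf1, studied mostly as a promoter of translation (chr2:180904377-180920949, minus strand), had 441 and 581 in GM against 397 and 596 in 3d DM. Its log2 fold change was 0.06 ± 0.44, and the groups overlapped. Ythdf2, which brings marked mRNAs to the CCR4-NOT deadenylase (chr4:132184912-132212303, minus strand), had 702 and 867 against 534 and 723, with a log2 fold change of 0.33 ± 0.44 (95% confidence interval -0.53 to 1.18). GM replicate 1 fell between the 3d DM libraries, so these groups overlapped too. Ythdf3, which works with the other two (chr3:16183212-16217037, plus strand), had 712 and 779 against 728 and 970, and its log2 fold change was -0.17 ± 0.43. After rescaling the 3 log2 fold changes were -0.17, 0.10 and -0.40, all with adjusted p of 0.185 or more. The sign for Ythdf1 thus depended on the scaling. For Ythdf3, the rescaled values were 605 and 779 in GM against 936 and 879 in 3d DM.

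The nuclear reader Ythdc1 (chr5:86804221-86836659, plus strand) had 590 and 518 in GM against 407 and 505 in 3d DM. Both GM libraries were above both 3d DM libraries, as for 37.0% of all tested genes, but its log2 fold change of 0.29 ± 0.44 did not pass the test (adjusted p = 0.773). Rescaling brought GM to 502 and 518 against 524 and 457 for 3d DM, where the states overlapped and the log2 fold change was 0.06. Ythdc2, an RNA helicase with a YTH domain that is best known from germ cells entering meiosis (chromosome 18), was expressed at lower values, with 78.6 and 125 in GM against 72.1 and 114 in 3d DM. The difference between its replicates exceeded that between the states (log2 fold change 0.13 ± 0.52, and -0.09 after rescaling).

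The 3 KH-domain readers were each higher in both GM libraries than in both 3d DM libraries, as were 37.0% of all tested genes. Their levels were very different, and only Igf2bp2 was tested. Igf2bp2, the family member that stays on in adult muscle precursors and is needed for myoblast growth (chr16:22059009-22163299, minus strand), had 782 and 492 in GM against 274 and 339 in 3d DM. The means were 637 ± 205 and 306 ± 45.8 (SD, n = 2). Its log2 fold change was 1.02 ± 0.45 (95% confidence interval 0.15 to 1.90, unadjusted p = 0.0223, adjusted p = 0.105), and after rescaling it was 0.80 ± 0.22 (adjusted p = 0.0495). GM replicate 1, the GM library with more myotube RNA, also had the higher Igf2bp2 value, and without it the log2 fold change was 0.69 (adjusted p = 0.769). Leaving out any other library gave 0.87 to 1.36, none past the adjusted threshold.

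Igf2bp3 and Igf2bp1, mostly known from embryonic and tumour cells, were too low to be tested. Igf2bp3 (chr6:49085223-49214957, minus strand) had 46.5 and 18.1 in GM against 11.6 and 16.3 in 3d DM, with 1 library above the filter value of 25.1. Of its annotated exon bases, 18.7% overlap the gene Malsu1 on the opposite strand, with 211 and 186 in GM against 139 and 135 in 3d DM. Whether the counting used strand is not given in the sources used here, so the Igf2bp3 values are uncertain. Igf2bp1 (chr11:95957163-96005940, minus strand) had 4.17 and 5.02 in GM against 0.179 and 3.89 in 3d DM. No library reached the filter for it, and the gap between its 3d DM replicates was wider than that between the states. After rescaling, both stayed higher in both GM libraries, as 33.3% of all tested genes were, but Igf2bp1 by a margin as narrow as 3.55 against 3.53.

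Levels of different genes were compared per kb of annotated exon. On this scale Alkbh5 was highest, with a mean of 177 over the 4 libraries (range 151 to 206), followed by Ythdf2 with 155, Ythdf1 with 152 and Ythdf3 with 149. The ranges of these 4 genes overlapped, so their order is not resolved. Fto followed with 72.1 (45.5 to 107), below every library of Ythdf3, then Igf2bp2 with 63.7 (37.0 to 106) and Ythdc1 with 37.0 (29.8 to 43.2), each overlapping the one before it. Ythdc2 at 11, Igf2bp3 at 2.83 and Igf2bp1 at 0.342 came last, and no range in this group overlapped its neighbours. The order depended on the length used, since the annotated exons of Fto add up to 13031 bases but its longest protein-coding transcript has 4707. Per kb of that transcript Fto came first, ahead of Alkbh5 with 185, and Ythdc1, with 154, lay beside Ythdf3, with 156. Ythdc2, Igf2bp3 and Igf2bp1 were the lowest with either length. No pair of the 10 genes shared a stretch of 50 bases in their protein-coding transcripts, so reads of that length or longer would not be split between them. Pseudogene copies were not searched.

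**Figure D1:**
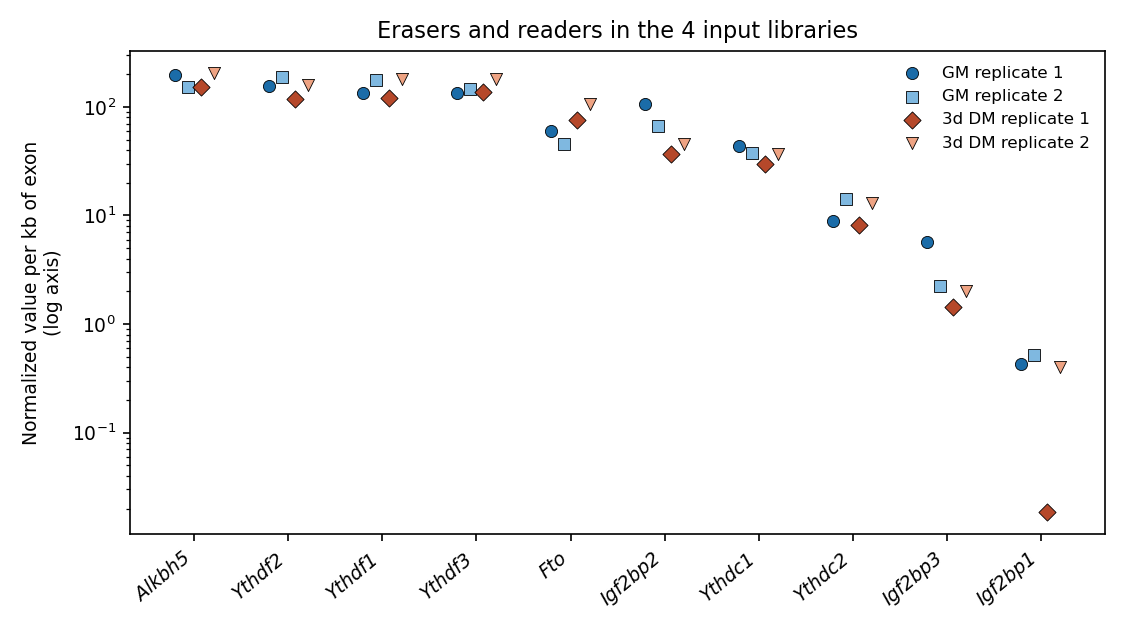
Normalized value per kb of exon (log axis) of the 10 genes in the 4 input libraries, 1 point per library, ordered by the mean over libraries. Alkbh5 and the 3 Ythdf genes lie together between 117 and 206, the points of Fto and Igf2bp2 separate by state in opposite directions, and Igf2bp1 lies below 1.

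**Figure D2:**
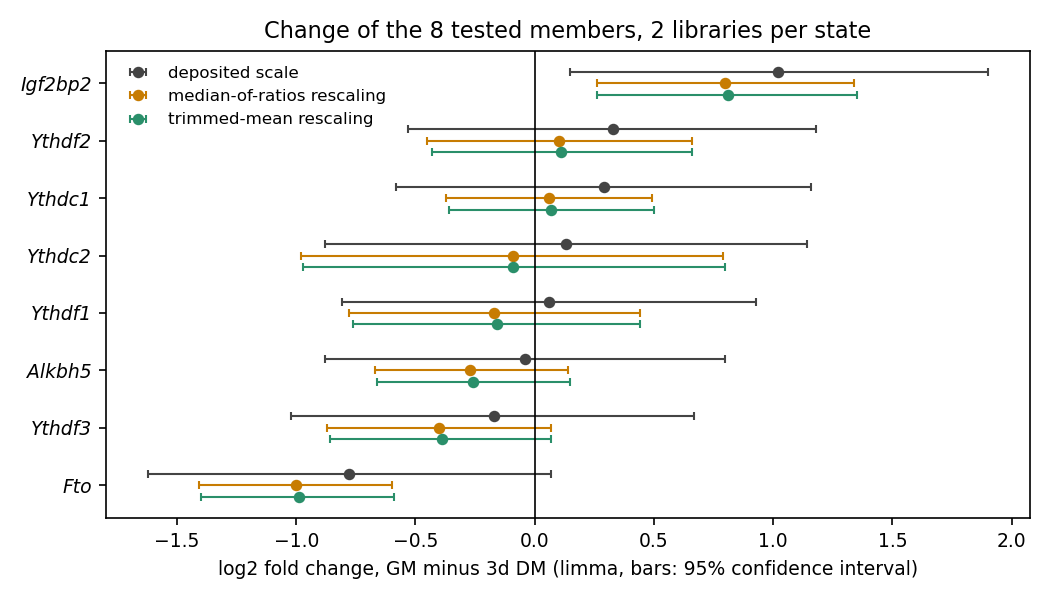
Log2 fold change (GM minus 3d DM) of the 8 tested genes on the deposited scale and after each rescaling, with 95% confidence intervals from limma (2 libraries per state). After rescaling, the intervals of Fto (-1.41 to -0.60 with median-of-ratios factors) and Igf2bp2 (0.26 to 1.34) leave out 0.

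The expression profile of Igf2bp2, the tested member with the largest log2 fold change on the deposited scale, was closest to those of Zfp61, Prickle3 and Rufy2. The measure was the Euclidean distance between log2(value + 1) profiles over the 4 input libraries, each centred on its own mean, and was 0.0735, 0.0743 and 0.0916. Zfp61, for example, had 143 and 90.3 in GM against 52.4 and 65.0 in 3d DM. With 4 libraries such closeness is a description only.

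Peak lists were available for each IP library, with the enrichment of IP over input as a fold. The transcripts of 7 of the 10 genes carried an m6A peak in all 4 lists, where 42.0% of all tested genes did. These were Fto, Alkbh5, Ythdf1, Ythdf2, Ythdf3, Ythdc1 and Igf2bp2. The 3 others, Ythdc2, Igf2bp1 and Igf2bp3, had no peak in any list and were also the 3 with the lowest level per kb. After lines of the same gene and strand that share at least 1 bp were merged, the 7 genes had 14 peaks, of which 10 were in all 4 lists, 1 was in 3 and 3 were in a single list. The peaks are numbered here from the 5′ end of each gene. Counted within each library, the 10 genes had 13 distinct peaks in each GM library, and 15 and 12 in the 3d DM libraries. With 2 libraries against 2, an exact permutation test cannot go below p = 0.33, and none was run.

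Most of these peaks lay in coding sequence or at the stop codon. Positions on the spliced transcript are given in nt, with 0 at the first base of the stop codon and negative numbers upstream. The peaks of Ythdf2 (peak 1) and Ythdf3 (peak 2) were broad, running from -1635 to 488 and from -1354 to 346, and covered most of the long coding exon and the stop codon. In these, the stretch called in all 4 lists was 988 and 1166 nt. The Ythdf1 peak stayed within the coding sequence, from -1470 to -42, and its common stretch was 179 nt because 3d DM replicate 2 had a short call. Ythdc1 had 2 peaks, 1 across the start of the coding sequence (-2413 to -1041) and 1 across the stop codon (-713 to 211).

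Fto had a peak inside the coding sequence (peak 1, -1011 to -622) and another in the 3′ UTR (peak 2, 269 to 449, on a different annotated transcript). Alkbh5 had a peak at the stop codon (peak 2, -250 to 140), another far down its 3′ UTR (peak 3, 3379 to 3769), and a coding peak in GM replicate 1 alone (peak 1, fold 2.1). No base of Alkbh5 peak 2 was called in all 4 lists, as 3d DM replicate 1 and 3d DM replicate 2 had calls on either side of each other. Igf2bp2 had a peak at the stop codon (peak 1, -103 to 317) and another in the distal 3′ UTR (peak 2, 856 to 1336), which was called in both GM libraries and in 3d DM replicate 1, with folds of 4.18, 3.86 and 3.92, but not in 3d DM replicate 2. That library also had the fewest lines in its peak list, 23785 against 26568 to 31221. The other peaks in single lists were a Ythdf2 3′ UTR peak in 3d DM replicate 2 (fold 2.44) and a Ythdf3 peak at the 5′ end in 3d DM replicate 1 (fold 2.21).

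**Figure D3:**
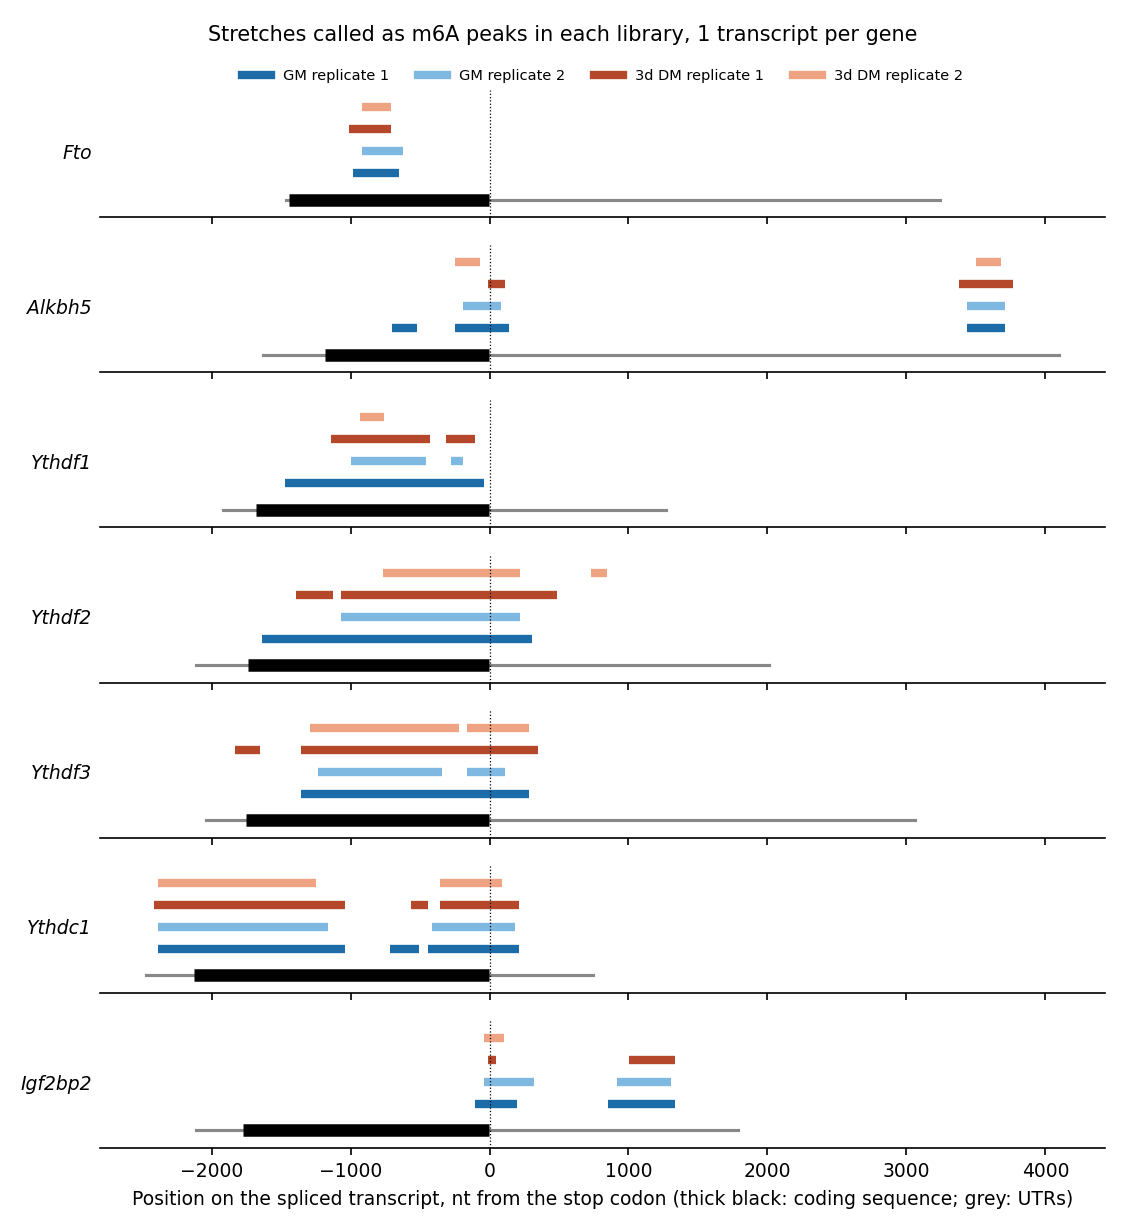
Stretches called as m6A peaks in each library on the spliced transcript of 7 genes, in nt from the stop codon, with 1 annotated transcript per gene (Fto peak 2 lies on another transcript and is not drawn). The coding sequence is the thick black bar, and the calls of the 4 libraries are stacked above it. Calls of Ythdf2 and Ythdf3 run over most of the coding sequence, apart from the Ythdf2 call in 3d DM replicate 2, which starts at -768. The distal Igf2bp2 peak is missing in 3d DM replicate 2.

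The sequence GGACT, searched on the transcript strand, was found in the stretch common to all 4 lists for 4 of the 9 peaks that had such a stretch, where 35.7% of 5314 peaks of all genes held it. Since longer stretches hold it more often, each is set beside peaks whose common stretch was within 20% of its length. Ythdf2 peak 1 held 3 (71.3% of 275 like peaks had at least 1), Ythdc1 peak 1 held 2 (71.8% of 209), Ythdf3 peak 2 held 1 (71.8% of 195) and Alkbh5 peak 3 held 1 (28.0% of 1127). The common stretches of Fto, Ythdf1 and Igf2bp2 peaks and of Ythdc1 peak 2 held none, which says only that these letters are not there. The windows around the GGACT nearest the middle of the common stretch, in the strongest peak of Alkbh5, Ythdf2 and Ythdc1, are shown because they carry the m6A calls compared below. They are mm10 transcript sequences from GENCODE release M21, written 5′ to 3′ with GGACT in capitals.
Alkbh5, 3′ UTR, chr11:60557930-60557959, plus strand, motif at 3530 from the stop codon: cagtgttaagcaaGGACTctaccactgatc
Ythdf2, coding sequence, chr4:132204371-132204460, minus strand, motif at -307: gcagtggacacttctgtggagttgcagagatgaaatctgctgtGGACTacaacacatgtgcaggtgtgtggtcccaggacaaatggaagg
Ythdc1, 5′ UTR, chr5:86804461-86804490, plus strand, central motif at -90 from the start codon: cGGACTgacggacGGACTcgtgcgcctgcg
The windows of Alkbh5 and Ythdf2 have 1 match each, and that of Ythdc1 has a second match upstream of the central one.

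At 7 of the 10 peaks called in all 4 lists, the fold enrichment was higher in both GM libraries than in both 3d DM libraries, and at the other 3 the states overlapped. The 7 include Alkbh5 peak 2, where no base was called in all 4 lists. Among all 6055 peaks called in all 4 lists, 21.4% had both GM folds above both 3d DM folds and 9.05% had both below. The median log2 difference (GM minus 3d DM) was 0.41 over the 10 peaks and 0.10 over all, and 8 of 10 differences were positive, against 59.9% of all. No single peak passed the test: limma called 0 of the 10 (0 at an unadjusted p under 0.05), and 0.0% of all 6055, with 3.48% at an unadjusted p under 0.05. The fold at a peak could not be separated by state in general either, as the correlation of log2 folds across peaks was 0.63 between the GM replicates, 0.59 between the 3d DM replicates and 0.58 to 0.69 between libraries of different states.

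Among the readers, the folds at the 5′ peak of Ythdc1 (peak 1, chr5:86804281-86822614, spanning introns) were 12.7 and 12.1 in GM against 7.47 and 7.82 in 3d DM. This was the most enriched peak of the 10, above 92.0% of all shared peaks, and the gap between the states was wider than that within them. The log2 difference was 0.70 ± 0.57 (SE, 95% confidence interval -0.53 to 1.93, adjusted p = 0.999). The fold depended on the annotated transcript to which a line was assigned. Over the transcripts of this peak it ran from 11.6 to 19.2 in GM replicate 1 and from 2.45 to 12.1 in GM replicate 2. In 3d DM replicates 1 and 2 it ran from 5.62 to 7.47 and from 4.96 to 7.82. With the median fold over the lines the log2 difference was 0.04, and with the same transcript in all 4 lists it was 0.70. At the stop codon of the same gene (peak 2) the folds were 6.74 and 4.94 in GM against 8.30 and 6.11 in 3d DM, and the states overlapped.

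Ythdf3 peak 2 (chr3:16204084-16214322) showed the largest difference of the 10, with folds of 13.9 and 6.50 in GM against 5.82 and 3.76 in 3d DM. The GM replicates were further apart than GM replicate 2 was from the 3d DM libraries, and the log2 difference was 1.02 ± 0.55 (95% confidence interval -0.15 to 2.20, unadjusted p = 0.083). It was 0.47 without GM replicate 1 and 1.57 without GM replicate 2. With the median fold over the lines of the peak it was 0.62. Ythdf2 peak 1 (chr4:132186409-132211912) had 6.12 and 9.24 in GM against 5.29 and 4.04 in 3d DM, a log2 difference of 0.70 ± 0.48. For the Ythdf1 peak (chr2:180910704-180912151) the folds were 4.59 and 4.30 in GM against 3.17 and 2.47 in 3d DM, and the log2 difference was 0.67 ± 0.38. All 3 Ythdf transcripts thus had both GM folds above both 3d DM folds, as 21.4% of all shared peaks did. With the same transcript in all 4 lists, the gap at Ythdf3 peak 2 was as narrow as 5.98 (GM replicate 2) against 5.89 (3d DM replicate 1).

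The shared peaks of the eraser transcripts had lower mean folds than those of the Ythdf genes and Ythdc1. Fto peak 1 (chr8:91409528-91468391) had folds of 3.15 and 3.37 in GM against 2.39 and 2.75 in 3d DM, and Fto peak 2 had 2.17 and 2.17 against 1.60 and 2.1. Their log2 differences were 0.35 ± 0.35 and 0.24 ± 0.31. Fto peak 2 was among the weakest shared peaks, above 2.64% of all of them. Around the stop codon of Alkbh5 (peak 2) the folds were 3.94 and 3.05 in GM against 2.25 and 2.78 in 3d DM, with a log2 difference of 0.47 ± 0.36. In 3d DM replicate 2 the call ran from -250 to -70, short of the stop codon, so these folds are not from the same bases. In the distal 3′ UTR of Alkbh5 (peak 3, chr11:60557792-60558182) the folds were 3.76 and 2.71 against 3.99 and 2.62, with a difference of -0.02 ± 0.39. The replicates at this site differed more than the states did.

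Igf2bp2 peak 1 differed widely between replicates, with 2.68 and 3.77 in GM against 2.02 and 4.68 in 3d DM, and its log2 difference was 0.05 ± 0.43. The states thus overlapped at the shared peak of this gene.

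**Figure D4:**
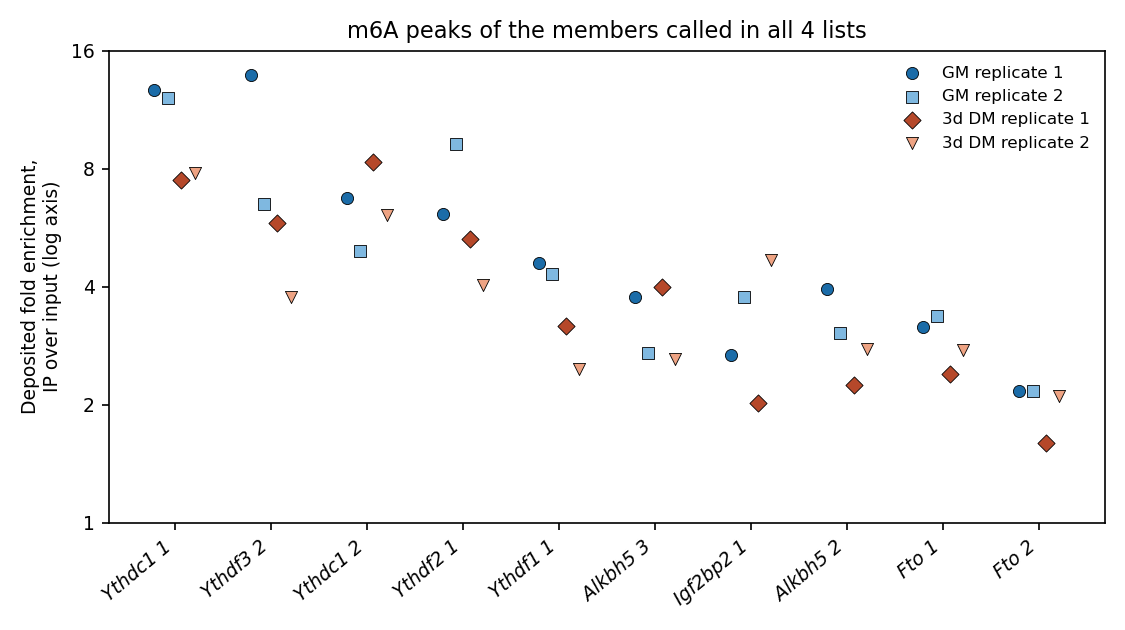
Deposited fold enrichment of IP over input (log axis) at the 10 peaks of these genes that were called in all 4 lists, 1 point per library, ordered by the mean. The number after a gene counts its peaks from the 5′ end. GM points lie above 3d DM points at 7 peaks, and at Ythdc1 2, Alkbh5 3 and Igf2bp2 1 the states overlap.

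RNA and m6A values of the same gene can be set side by side, with the fold already relative to the input RNA. For Fto, the input RNA was lower in GM (log2 fold change -0.78) while both peaks had higher folds in GM (0.35 and 0.24). For Ythdf1, Ythdf2 and Ythdc1 the RNA differences were 0.06, 0.33 and 0.29, and those of the most enriched peak were 0.67, 0.70 and 0.70. With the median fold over the lines the Ythdc1 value was 0.04, and Ythdc1 peak 2 had -0.30. Alkbh5 had -0.04 for RNA, with 0.47 at peak 2 and -0.02 at peak 3. Igf2bp2 had 1.02 for RNA and 0.05 at peak 1. Ythdf3 had -0.17 for RNA and 1.02 for its peak (0.47 without GM replicate 1). After rescaling, the RNA differences were -1.0 for Fto, -0.17 for Ythdf1, 0.10 for Ythdf2 and 0.06 for Ythdc1. They were -0.27 for Alkbh5, 0.80 for Igf2bp2 and -0.40 for Ythdf3. None of the peak differences, and none of the RNA differences on the deposited scale, passed an adjusted p of 0.05.

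The other genes of the m6A pathway were described from 6 lists with 53 genes, of which 50 were tested. Of these, 5 were called higher and 2 lower in GM, where 9.96% of all tested genes were called higher and 7.01% lower. The other 43 did not pass. The median log2 fold change of the 50 was 0.41, against 0.22 over all tested genes, and 0.18 after rescaling. After rescaling, 5 were called higher and 3 lower in GM, beside 11.2% and 12.0% of all tested genes. None of the 9 writers passed limma's adjusted threshold. An unadjusted p under 0.05 was found for 1 of them, and for 2987 of the 11406 tested genes. All 9 log2 fold changes of the writers were positive on the deposited scale, as were 7212 of the 11406. Their median was 0.43, and 0.21 after rescaling, when Zc3h13 was negative (-0.11). The writers include the catalytic Mettl3, with 168 and 177 in GM against 107 and 180 in 3d DM, and its partner Mettl14, with 199 and 232 against 123 and 185. The states overlapped for Mettl3 and not for Mettl14, and the log2 fold changes were 0.31 and 0.50 (0.09 and 0.28 after rescaling).

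None of the 5 genes listed with the other enzymes of m6A and of related marks passed. The same held for the 6 tested other Alkbh dioxygenases (0 at an unadjusted p under 0.05 in either list). The relatives of Alkbh5 had a median log2 fold change of -0.05, and -0.28 after rescaling, beside -0.04 and -0.27 for Alkbh5 itself. Of the 10 partners of the Ythdf and Ythdc proteins, 0 passed and 2 had an unadjusted p under 0.05, beside 2987 of all 11406 tested genes. Among the 10 indirect readers, RNA-binding proteins reported to bind RNA near m6A, 1 passed: Fmr1, the gene silenced in fragile X syndrome. It had 1095 and 1245 in GM against 311.5 and 472 in 3d DM, a difference of 1.60 ± 0.44 on the log2 scale (adjusted p = 0.00245), and 1.38 after rescaling (adjusted p = 0.00807). Leaving out 1 library at a time gave 1.31 to 1.90, with 1.70 without GM replicate 1. Without the filter on low values Fmr1 lost its call (limma, adjusted p = 0.293). Rescaling added calls for Rbmx, higher in GM (0.81, adjusted p = 0.0338), and Fxr1, lower in GM (-1.0, adjusted p = 0.0113), which are named after their values were seen.

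Most calls were among the partners, regulators and targets of the Igf2bp proteins, where 4 of 10 tested genes were higher in GM. A further 2 were lower and 4 did not pass. For comparison, 9.96% of all tested genes were called higher and 7.01% lower in GM. Hmga2, the chromatin protein known to activate Igf2bp2 transcription, had 2362 and 3218 in GM against 161 and 168 in 3d DM (log2 fold change 4.06 ± 0.44, adjusted p = 1.59e-18). It moved in the same direction as Igf2bp2. Igf2, whose mRNA gave the family its name, moved the other way, with 136 and 60.2 in GM against 982 and 2037 in 3d DM (-3.95 ± 0.45, adjusted p = 2.81e-16). H19, the noncoding RNA from the same locus that binds Igf2bp proteins, had 19860 and 7622 in GM against 49920 and 71140 in 3d DM (-2.28 ± 0.40, adjusted p = 3.19e-07). Actb, whose mRNA is localised by Igf2bp1, had 55910 and 59210 against 15270 and 18160 (1.79 ± 0.40, adjusted p = 0.000114). After rescaling, these 4 log2 fold changes were 3.83, -4.18, -2.5 and 1.56, with adjusted p of 0.00166 to 0.0193. The other calls were Myc and Pabpc1, also named after their values were seen. After rescaling Pabpc1 stayed past the threshold (1.52, adjusted p = 0.00695) and Myc lost its call (1.21, adjusted p = 0.147). Lin28a and Lin28b were too low to be tested.

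**Figure D5:**
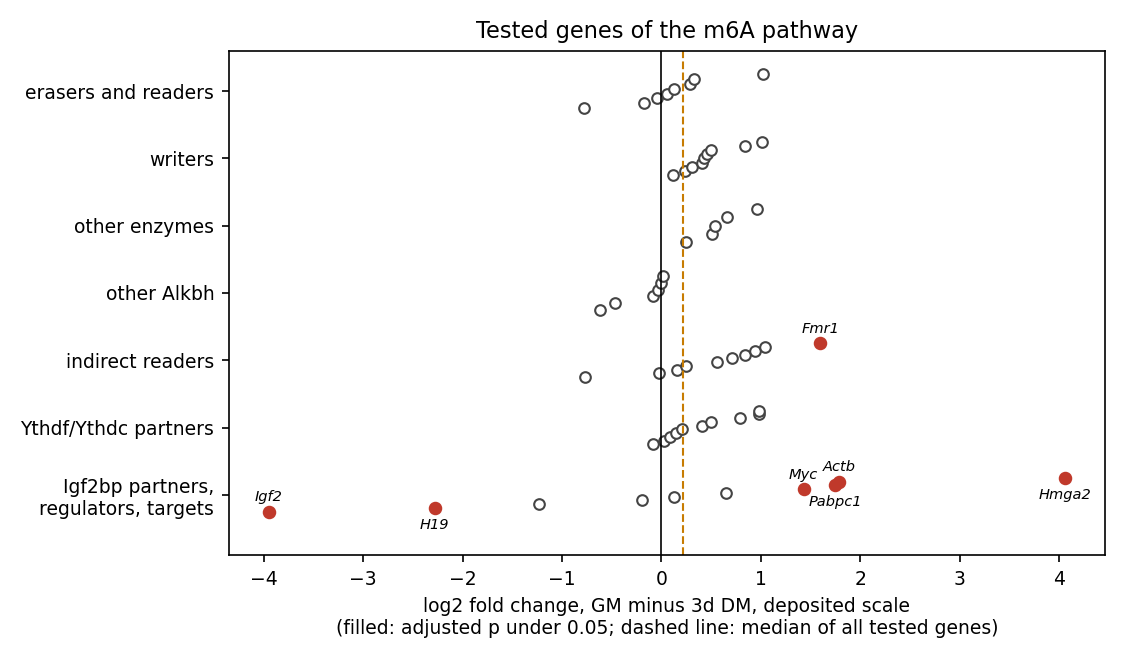
Log2 fold change (GM minus 3d DM) on the deposited scale of the tested genes in each list, 1 point per gene, with those at an adjusted p under 0.05 filled and named. The 8 erasers and readers lie between -0.78 and 1.02 with none filled, and the filled points are Fmr1 and 6 genes of the Igf2bp list.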

How the data were processed

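C2C12 input RNA and m6A immunoprecipitates were analysed, with 2 libraries of each in GM and in 3d DM, grouped by the labels. Per the study's methods, the authors used HISAT2 (v2.1.0) for alignment to mm10, called peaks with exomePeak for each IP against its own input, and handled gene expression with edgeR. The deposited expression table holds a normalized signal whose name refers to TMM scaling. Its low values are neither whole nor multiples of a step, so reads were not recoverable and depth is unknown. The deposited peak lists give, for each protein-coding transcript, a fold (ratio of IP over input) and a p-value. The largest p-value was 0.0107.

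Differential expression was assessed by limma (version 3.58.1; R 4.3.3; intensity trend, Benjamini-Hochberg adjustment, threshold 0.05) on log2(value + 1) for genes whose value was 25.1 or more (2 cpm of a column's total) in at least 2 of 4 libraries. Fold changes on this scale understate changes of low genes. Standard errors of the deposited values followed the trend (0.43 to 0.52 for the members) and hardly a gene's own replicates, so these p-values do not measure its replicate spread. Peak folds, each from the line with the lowest p-value, were tested likewise on the log2 scale over the 6055 peaks in all 4 lists. Adjustment was over all genes or peaks. Inner block starts of peaks matched annotated exons at all 39335 junctions when read as counted from 0, and coordinates are given counted from 1. Lengths, positions and sequences came from GENCODE M21. The sequence window of 1 further peak is not reported here. Scripts were tested on simulated data. Alternatives were other filters, pseudocounts, scalings, merging rules, the replicate block and leaving out each library.

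The members and gene lists were chosen with earlier results of these data known. Genes named were the members, in each pathway list up to 4 called genes with the largest change, 6 genes that check the state, and the 3 nearest profiles to the tested member with the largest change.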

Additional observations from a re-analysis of the deposited data

How the results depend on the processing

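The number of called members was 0 on the deposited scale and 2 after median-of-ratios or trimmed-mean rescaling, where the log2 fold change was -1.0 and -0.99 for Fto and 0.80 and 0.81 for Igf2bp2. The same scalings turned Ythdf1 to -0.17 and -0.16 and Ythdc2 to -0.09 with both. With each input library left out in turn, 0 members were called, and the sign turned for Alkbh5 (-0.26 to 0.18), Ythdf1 (-0.23 to 0.35), Ythdf3 (-0.38 to 0.03) and Ythdc2 (-0.20 to 0.46). Calls among the other pathway genes fell from 7 to 1 without a filter on low values, and were 2 to 6 with a library left out (2 without 3d DM replicate 1, 3 without 3d DM replicate 2). Over all genes, 1936 calls became 154 without the filter and 145 (without 3d DM replicate 1) to 1252 (without GM replicate 1), with 874 and 676 without GM replicate 2 and 3d DM replicate 2.

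No peak of the members was called under any alternative, including 1 chosen after seeing the data (the same transcript in all 4 lists). At a p-value of at most 1e-05, 1 peak of another gene was called. With the median fold over the lines, the median log2 difference of the 10 peaks went from 0.41 to 0.26. Ythdc1 peak 1 then went from 0.70 to 0.04. The log2 difference at Igf2bp2 peak 1 turned to -0.06 when folds were centred on each library's median, and leaving out an IP library gave -0.56 to 0.65 there and -0.32 to 0.28 at Alkbh5 peak 3. Distinct peaks per library, GM minus 3d DM, went from -0.5 to 2.0 at a p-value of at most 1e-05, and lay between -2.0 and 1.0 with a library left out. The median level per kb rose from 67.9 to 155 with the longest coding transcript. The cause of these changes was not tested. The labels do not say whether a replicate number marks a shared culture or batch, and deviations of same-numbered libraries correlated at 0.29 (expression) and 0.13 (peaks). A replicate block gave 0 called members, 6 other pathway genes, 1298 of all genes and 0 peaks. Unknown depth and 2 libraries per state limit every value.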
